A study of Mus musculus with 1483 samples.

Results

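Adamts2, Adamts5, Adamts8, Adamts15, Adamtsl5, Hpse, Tll1 and Prss23 encode proteases of the extracellular matrix, a protease-like matrix protein and heparanase. They were taken by gene symbol as 8 of the 45768 genes in a table of single-cell transcriptomes, and all 8 passed the filter on low values. They were selected on their CPM in these same cells, so their differences between enhancers and between cell classes are a description. Whether a pair passed the call rule given below is stated for them as part of that description, with no p, and supports nothing. The cells came from the tissue labelled VISp, a name used for the primary visual cortex, of C57Bl/6J mice. The virus given to each mouse was an adeno-associated one, whose single enhancer (eHGT_017h, eHGT_019h, eHGT_023h, eHGT_058h, eHGT_064h, eHGT_078h, eHGT_079h, eHGT_082h, eHGT_128h, eHGT_140h or hDLXI56i) drove the yellow fluorescent protein SYFP2. Fluorescent cells were sorted 1 by 1 and their polyadenylated RNA was sequenced by the SMART-Seq v4 chemistry. There were 33 mice and 1483 cells, with 3 mice for each of 9 enhancers, 4 for eHGT_064h and 2 for eHGT_082h. The mouse was the replicate. No mouse without a virus was used here, a mouse's mean describes only its sorted cells, and the sources used here do not give the ages of the mice, the promoter beside the enhancer or the route of injection.

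The brain's extracellular matrix is built on hyaluronan, on chondroitin sulfate proteoglycans called lecticans, such as aggrecan and brevican, and on heparan sulfate proteoglycans. A dense form of it, the perineuronal net, is best known around Pvalb interneurons of the cortex. ADAMTS proteases are secreted metalloproteases, and Adamts5, Adamts8 and Adamts15 belong to those that can cut lecticans. Adamts2 removes the amino-terminal propeptide of fibrillar procollagens. Tll1, a tolloid-like metalloprotease, processes procollagens at the other end and cuts the BMP antagonist chordin. Adamtsl5 is built like an ADAMTS protein but lacks the protease domain. Hpse, or heparanase, is the endoglycosidase that cuts heparan sulfate chains, and Prss23 is a secreted trypsin-like serine protease.

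The 8 genes lie on 7 chromosomes of the mouse build GRCm38, by the GENCODE vM21 annotation. Adamts15 (chr9:30899155-30922452, minus strand) and Adamts8 (chr9:30942562-30963838, plus strand) are neighbours that point away from each other, with 20110 bases between their starts and 0 annotated genes between them. The others are Adamts5 (chr16:85856173-85901828), Tll1 (chr8:64014931-64206271), Adamtsl5 (chr10:80339110-80348412), Hpse (chr5:100679484-100719716) and Prss23 (chr7:89507783-89527187) on the minus strand and Adamts2 (chr11:50602084-50807573) on the plus strand. Prss23 overlaps the antisense gene Prss23os, Adamts8 overlaps Gm29724, Adamts2 overlaps Gm12198, Gm12199 and Gm12200, and Tll1 overlaps Gm22586, each on the other strand. The sources used here do not say whether the counting used strand, and reads of such partners cannot then be told apart. Gm29724 averaged 0.668 CPM in Pvalb cells, 0.911 CPM in Fezf2 cells and 1.61 CPM in the other excitatory cells, the class where Adamts8 had its second highest mean.

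RefSeq promoter sequences matched 5 of the 8 genes, on GRCm38.p6. Those of 3 genes are shown as the 250 bases before an annotated start, 5′ to 3′ on the gene's strand, because these genes lead the classes described below: Prss23 and Adamtsl5 in Pvalb cells and Hpse in Sst cells. Capitals mark matches to any of 5 motifs searched on both strands.
Prss23, the second of 7 annotated starts, chr7:89518205-89518454, minus strand: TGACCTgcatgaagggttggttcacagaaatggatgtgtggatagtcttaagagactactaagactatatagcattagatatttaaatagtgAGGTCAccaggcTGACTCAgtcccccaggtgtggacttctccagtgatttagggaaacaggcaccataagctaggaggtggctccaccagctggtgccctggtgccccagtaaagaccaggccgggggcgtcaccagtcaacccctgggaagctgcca
Adamtsl5, chr10:80348449-80348698, minus strand: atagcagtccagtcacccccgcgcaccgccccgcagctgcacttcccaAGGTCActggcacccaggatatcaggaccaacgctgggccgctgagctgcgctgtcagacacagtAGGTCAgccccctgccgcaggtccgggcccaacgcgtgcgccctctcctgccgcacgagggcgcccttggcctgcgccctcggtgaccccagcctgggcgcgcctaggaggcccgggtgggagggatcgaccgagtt
Hpse, chr5:100719717-100719966, minus strand: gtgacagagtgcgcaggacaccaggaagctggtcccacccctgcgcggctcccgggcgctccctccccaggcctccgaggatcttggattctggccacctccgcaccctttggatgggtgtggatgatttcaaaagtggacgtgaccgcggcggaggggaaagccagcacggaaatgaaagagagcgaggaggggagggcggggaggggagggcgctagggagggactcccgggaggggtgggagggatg
The motifs were the nuclear receptor half-site AGGTCA, the homeodomain core TAATTA, the E-box CACGTG, the CRE TGACGTCA and the AP-1 site TGACTCA. Among the 32851 promoter windows of the same length in the table, 14.02% held AGGTCA, 4.84% TAATTA, 6.02% CACGTG, 1.55% TGACGTCA and 4.46% TGACTCA. The Adamtsl5 window holds AGGTCA at positions -202 and -137 from the start. The Prss23 window holds AGGTCA at -158, its reverse complement at -250 and TGACTCA at -146, and none of these matches overlap. The Hpse window holds none of the 5. Their GC contents are 52% for Prss23, 70.8% for Adamtsl5 and 66.8% for Hpse, beside a median of 52.4% over all windows. The Prss23 window was shown with its matches known. Start 3 lies so close that its window overlaps this one and shares matches, and the windows of the other 5 Prss23 starts, with GC contents of 47.6% to 79.6%, hold none of the motifs. The windows of Adamts2 and Tll1 hold none of the motifs either, and their GC contents are 78% and 43.2%.

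Expression is given as CPM, the counts per 1000000 reads of a cell, and a gene is called present in a cell at 10 CPM or more. In the median cell, with 586338 reads, 1 read was 1.71 CPM. Reads per cell ran from 833 to 1018507, 16 cells had fewer than 100000, and reads per mouse summed to between 17123364 and 35856031. Of the 1483 cells, Prss23 was present in 43.9%, Adamts8 in 32.03%, Adamtsl5 in 30.5%, Adamts15 in 24.6%, Tll1 in 18.4%, Adamts5 in 8.56%, Hpse in 5.93% (88 cells) and Adamts2 in 4.45% (66 cells). In the cells where each was present, the median level was 170.97 CPM for Prss23, 111.9 CPM for Hpse and 23.6 CPM for Adamts2. These medians are not corrected for gene length.

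Cells were put in classes by thresholds on marker genes. Inhibitory cells had Gad1 or Gad2 and no Slc17a7 at 10 CPM, and were split at 100 CPM into Pvalb (576 cells, 38.8% of all cells), Sst (14.6%), both Sst and Pvalb (7.28%), Vip (3.37%, 50 cells), Lamp5 (10.4%) and other inhibitory cells (21 cells). Excitatory cells had Slc17a7 without Gad1 and Gad2, and were split at 10 CPM into Fezf2 (8.23%), Rorb (3.10%, 46 cells) and other excitatory cells (7.42%, 110 cells). The remaining 80 cells had no class. Markers not used to set the classes were checked. The Pvalb marker Syt2 was present in 78.3% of Pvalb cells, 31.97% of Fezf2 cells and at most 4% of cells of the Sst, Vip and Lamp5 classes. The other Pvalb markers were shared more widely: Pthlh was present in 76.4% of Pvalb but also 80% of Vip cells, and Cox6a2 in 97.9% of Pvalb but also 88.3% of Lamp5 cells. Tac1 was present in 60.6% of Pvalb cells and at most 10% of cells of the 7 other classes compared. The Sst marker Elfn1 was present in 88.4% of Sst cells but also in 70% of Vip cells, against 7.47% of Pvalb cells. Of the other Sst markers, Grin3a was present in 99.5% of Sst cells, Calb2 in 34.3% of Sst but 50% of Vip cells, and Chodl in 1.85% of Sst cells. Cplx3 was present in 100% of Lamp5 cells, but also in 42.7% of the other excitatory and 26% of Vip cells. The other Lamp5 markers were less specific or less frequent. Reln was present in 58.4% of Lamp5 but 83.3% of Sst cells, and Ndnf in 40.9% of Lamp5 cells. Id2 was present in 99.4% of Lamp5 cells but also in 91.3% to 99.1% of cells of the 3 excitatory classes. Prox1 was present in 96% of Vip and 85.7% of Lamp5 cells, and Neurod6 in 61.5% to 97.8% of cells of the 3 excitatory classes. Of the Sst and Pvalb cells, 85.2% had Elfn1 and 22.2% had Syt2, which is nearer to Sst than to Pvalb cells. Within a factor of 2 of a threshold lay 70 cells for Pvalb, 66 for Lamp5, 53 for Slc17a7, 45 for Rorb, 21 for Fezf2, 13 for Sst, 2 for Vip and 1 each for Gad1 and Gad2. A class in 1 mouse counted as a unit when it had at least 5 cells, which left 76 units in 8 classes.

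Of the 8 genes, 5 had their highest class mean in Pvalb cells, and among the other 3 Hpse had it in Sst cells, Adamts2 in the other excitatory cells and Adamts5 in Sst cells, close to its level in Pvalb cells. Each class was set against the mean of the other 7 in 1 limma fit of log2(mean CPM + 1), and a pair was called where the adjusted p was under 0.05 and the groups differed by at least 1 on the log2 scale. By that rule 27 of the 64 pairs of gene and class were called, 12 higher and 15 lower. Over all genes 10.4% of such pairs were called. The calls of the 8 genes were repeated under up to 12 other settings for classes and 10 for enhancers, and without each of the 33 mice. With a pseudocount of 10, 7 class pairs were called, and the other calls that were lost most often are named beside their values. Log2 differences below are on this scale, which understates the change of low genes.

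**Figure D1:**
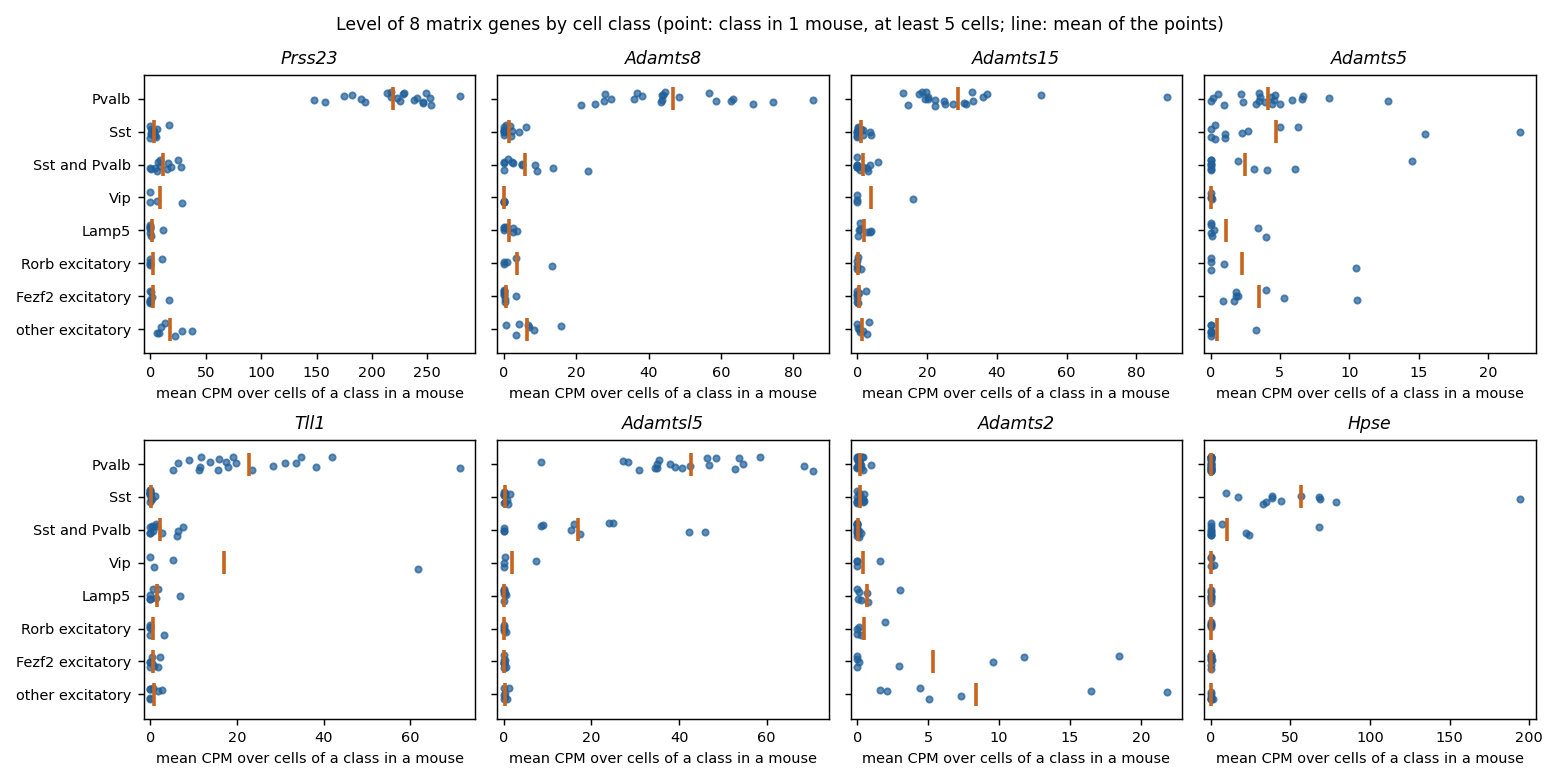
Each point is the mean CPM of 1 gene over the cells of 1 class in 1 mouse with at least 5 such cells, and the line is the mean of the points. The 21 Pvalb points of Prss23, from 147.7 to 279.5 CPM, lie above all points of the other classes, while the Adamts5 points of the classes overlap.

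Prss23, the serine protease, was found in most Pvalb cells. Over the 21 Pvalb units its lowest level was 147.7, its median 225.03 and its highest 279.5 CPM. The other excitatory cells came next, with 17.5 ± 11.9 CPM (SD, n = 7), then the Sst and Pvalb cells with 11.4 ± 9.01 CPM (SD, n = 12). No unit of another class reached the lowest Pvalb unit. The log2 difference of Pvalb from the other classes was 5.98 (SE 0.31), in a contrast where 4.43% of all genes were called higher and 5.45% lower. Present in 91% ± 8.06 of a mouse's Pvalb cells (SD, n = 21), Prss23 was also found in 35.3% ± 15.1 of the other excitatory cells (SD, n = 7) but in 3.04% ± 5.74 of the Fezf2 cells (SD, n = 8). In each of the 7 mice with both of these excitatory classes, its level was higher in the cells without Fezf2. The values of those 7 units were 37.1 CPM in eHGT_023h, 28.1, 21.8 and 7.43 CPM in eHGT_058h and 5.52, 13.2 and 9.41 CPM in eHGT_078h. That contrast of the other excitatory class was called, with a log2 difference of 1.60 (SE 0.47), where 6.89% of all genes were called higher and 4.31% lower, and it was not called among the 24 mice of library letter G (1.5) or with at least 10 cells a unit (0.79). Among Lamp5 cells Prss23 was present in 1 cell (0.649%). The Lamp5, Rorb, Fezf2 and Sst classes were called lower, by -2.23, -2.17, -2.07 and -1.04. The Sst call was lost under 5 of 12 other settings, a class threshold of 300 CPM among them, and without 7 of the 33 mice in turn.

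The 3 lectican-cutting proteases differed from each other. Adamts8 lay between 21.2 and 85.5 CPM in the 21 Pvalb units, with a median of 43.8 CPM. The next class, the other excitatory cells, averaged 6.52 ± 4.78 CPM (SD, n = 7), and the Sst and Pvalb cells 5.91 ± 6.94 CPM (SD, n = 12). Their highest units, 15.7 and 23.2 CPM, left Pvalb units and others overlapping only at the lowest Pvalb unit. Adamts8 was present in 66.3% ± 14.8 of Pvalb cells (SD, n = 21), and its log2 difference there was 4.29 (SE 0.26). It was called lower in the Vip class, whose 4 units were all at 0, and in the Fezf2 class (5.71% and 6.23% of all genes called higher in these contrasts, 6.61% and 3.0% lower), and higher, by 1.03, in the other excitatory class. This last call is lost under 7 of 12 other settings, among them the mice of library letter G alone (0.92), and without 11 of the 33 mice in turn.

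Adamts15, the neighbour of Adamts8, ran from 13.2 to 88.7 CPM in Pvalb units, with a median of 24.97 CPM. Its mean there was 29 ± 16.4 CPM (SD, n = 21), against 4.01 ± 8.01 CPM in the Vip class (SD, n = 4), where 3 units were at 0 and 1 at 16 CPM. It was present in 55.5% ± 11.4 of Pvalb cells (SD, n = 21), and in 2.78% of Sst cells. In none of the 46 Rorb cells was it at 10 CPM, which allows a share of up to 6.52%. Its log2 difference in the Pvalb class was 3.97 (SE 0.23), and it was called lower in the Rorb and Fezf2 classes, by -1.18 and -1.09. The Rorb call was lost without 3 of the 33 mice in turn, and the Fezf2 call without 1 and among the mice of letter G alone. Within the same mice both Adamts8 and Adamts15 were higher in Pvalb cells than in Sst and Pvalb cells in 12 of 12 mice, and higher than in Sst cells in 8 of 8.

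Adamts5 was low throughout and showed no leading class. Its means were 4.73 ± 7.05 CPM in Sst cells (SD, n = 12), 4.16 ± 2.96 CPM in Pvalb cells (SD, n = 21), 3.5 ± 3.19 CPM in Fezf2 cells (SD, n = 8) and 2.48 ± 4.30 CPM in Sst and Pvalb cells (SD, n = 12). These neighbours in the order did not differ beyond their spread. It was present in 13.5% ± 12.4 of Fezf2 cells (SD, n = 8), 11.7% ± 6.66 of Pvalb cells (SD, n = 21) and 8.80% ± 11.2 of Sst cells (SD, n = 12), and in 0 of 50 Vip cells, which allows up to 6.00%. The Pvalb class alone was called, by 1.19 (SE 0.29), and that call is lost when units need 10 cells (0.46).

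Of the genes that act on procollagens, Tll1 and Adamts2 were found in different cells. Tll1 in Pvalb units had a lowest level of 5.32, a median of 17.9 and a highest of 71.5 CPM. The Vip mean of 17 CPM came next, but it rested on 1 eHGT_019h unit of 6 cells at 61.8 CPM, while the other 3 Vip units were at 5.13, 0.928 and 0 CPM. The mean of that unit is what 1 cell at 370.9 CPM, the highest Tll1 level of any cell, gives with its other cells at 0. Pvalb and Vip units therefore overlapped. Tll1 was present in 39.3% ± 11.1 of Pvalb cells (SD, n = 21) and in 0.926% of Sst cells (2 cells). The 5 oligodendrocyte markers summed to 2.05 to 7.36 CPM in the 4 Vip units, with 2.05 CPM in the eHGT_019h unit. Tll1 was called higher in the Pvalb class, by 3.43 (SE 0.26), and lower in the Sst class, by -1.34 (SE 0.32), where 3.25% of all genes were called higher and 3.40% lower.

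Adamts2 was rare in inhibitory cells: it was present in 1 of 576 Pvalb cells and in none of the Sst cells, which allows up to 1.39%. It was present in 3 of 50 Vip cells and in 3 Lamp5 cells. The 66 cells that had it included 27 Fezf2 cells (22.1%) and 27 of the 110 other excitatory cells, but 1 of the 46 Rorb cells. Its level was 8.41 ± 7.74 CPM in the other excitatory units (SD, n = 7) and 5.36 ± 7.08 CPM in the Fezf2 units (SD, n = 8), which overlapped. Both classes were called higher, by 2.31 (SE 0.30) and 1.0 (SE 0.28). The Fezf2 call lies at the limit of the call rule: it was lost under 6 of 12 other settings, among them class thresholds of 30 and 300 CPM, and without 10 of the 33 mice in turn. In the other excitatory class the 4 mice of library letter G lay between 5.07 and 21.8 CPM and the 3 mice of letter J between 1.64 and 4.44 CPM, with no overlap, and the part of the library letter in these levels was not tested within the class.

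Adamtsl5, the member without a protease domain, was shared between the Pvalb class and the Sst and Pvalb class. Its lowest, median and highest Pvalb units were at 8.38, 40.6 and 70.7 CPM. In Sst and Pvalb units the mean was 16.9 ± 15.4 CPM (SD, n = 12), and in Sst units 0.352 ± 0.453 CPM (SD, n = 12). In 11 of 12 mice the Pvalb cells were higher than the Sst and Pvalb cells of the same mouse. It was present in 64.2% ± 18.3 of Pvalb cells (SD, n = 21), in 34.3% ± 27.5 of Sst and Pvalb cells (SD, n = 12) and in 1 Sst cell (0.463%). It was the 1 gene of the 8 called in the Sst and Pvalb class, by 2.20 (SE 0.31), where 3.0% of all genes were called higher and 6.04% lower, beside 4.59 (SE 0.25) in the Pvalb class. In the Sst, Lamp5, Rorb, Fezf2 and other excitatory classes it was called lower, by -1.01 to -1.39. The Sst call (-1.01) was lost under 5 of 12 other settings and without 10 of the 33 mice in turn, and the call in the other excitatory class (-1.11) under 6 of 12 and without 4 mice.

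Hpse, the heparanase, followed the Sst class. Its 12 Sst units were at 9.52 CPM at the lowest, 41.5 at the median and 194.3 at the highest, and the Sst and Pvalb class averaged 10.2 ± 20.3 CPM (SD, n = 12), with 8 of 12 units at 0 and 1 eHGT_023h unit at 68 CPM. Of the 88 cells with Hpse, 77 were Sst cells and 4 Sst and Pvalb cells. None of the 576 Pvalb cells had it, which allows a share of up to 0.521%, and none of the Lamp5 cells, which allows up to 1.95%. The Pvalb class was called lower, by -1.11, a call lost with a class threshold of 300 CPM. Its log2 difference in the Sst class was 5.16 (SE 0.33). It was higher in Sst than in Pvalb cells in 8 of 8 mice and higher than in Sst and Pvalb cells in 5 of 5. Even so it marked a minority of Sst cells: 33.0% ± 15.7 of a mouse's Sst cells (SD, n = 12).

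**Figure D2:**
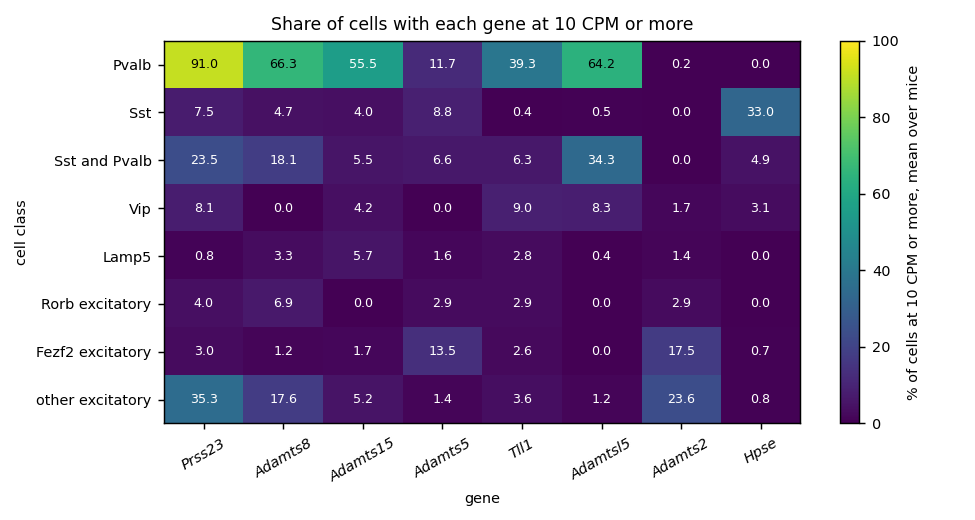
Colour and number give the percent of cells of a class (rows) in which a gene (columns) is at 10 CPM or more, as the mean over mice with at least 5 cells of the class. Prss23 reaches 91% in the Pvalb row and 35.3% in the other excitatory row, and Hpse 33.0% in the Sst row.

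Levels of different genes can be compared only per length. Per kilobase of exon, the mean in the leading class was 58.2 CPM for Prss23 in Pvalb cells, 16.2 CPM for Hpse in Sst cells, 10.1 CPM for Adamts8, 9.03 CPM for Adamtsl5, 2.93 CPM for Tll1 and 2.80 CPM for Adamts15, all in Pvalb cells. Adamts2, at 0.901 CPM in the other excitatory cells, and Adamts5, at 0.438 CPM in Sst cells, were lowest on this scale. Adamts15 and Tll1 were close on this scale. Their Pvalb means of 29 ± 16.4 and 22.7 ± 15.4 CPM (SD, n = 21) vary too much between mice to set their order.

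Across enhancers, Prss23, Adamts8 and Adamtsl5 had their 4 highest means in eHGT_128h, eHGT_140h, eHGT_082h and eHGT_079h. Adamts15 and Tll1 had their highest means among these 4 too, but hDLXI56i came before eHGT_079h for Adamts15 (16.4 against 16 CPM) and before eHGT_082h for Tll1 (12.3 against 11.3 CPM). Hpse, Adamts2 and Adamts5 each had a different order. Each enhancer was set against the mean of the other 10 in 1 limma fit of the 33 mice, by the same call rule. Of the 88 pairs of gene and enhancer, 42 were called, 19 higher and 23 lower. Over all genes 5.60% of such pairs were called. The sorted cells differed in class: 87 of the cells of eHGT_079h and 70 of eHGT_082h were Pvalb cells, against 6 of eHGT_058h and 0 of eHGT_078h. So the level in a mouse reflects both its mix of classes and the level in each class, and the 2 cannot be told apart in a mouse mean.

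**Figure D3:**
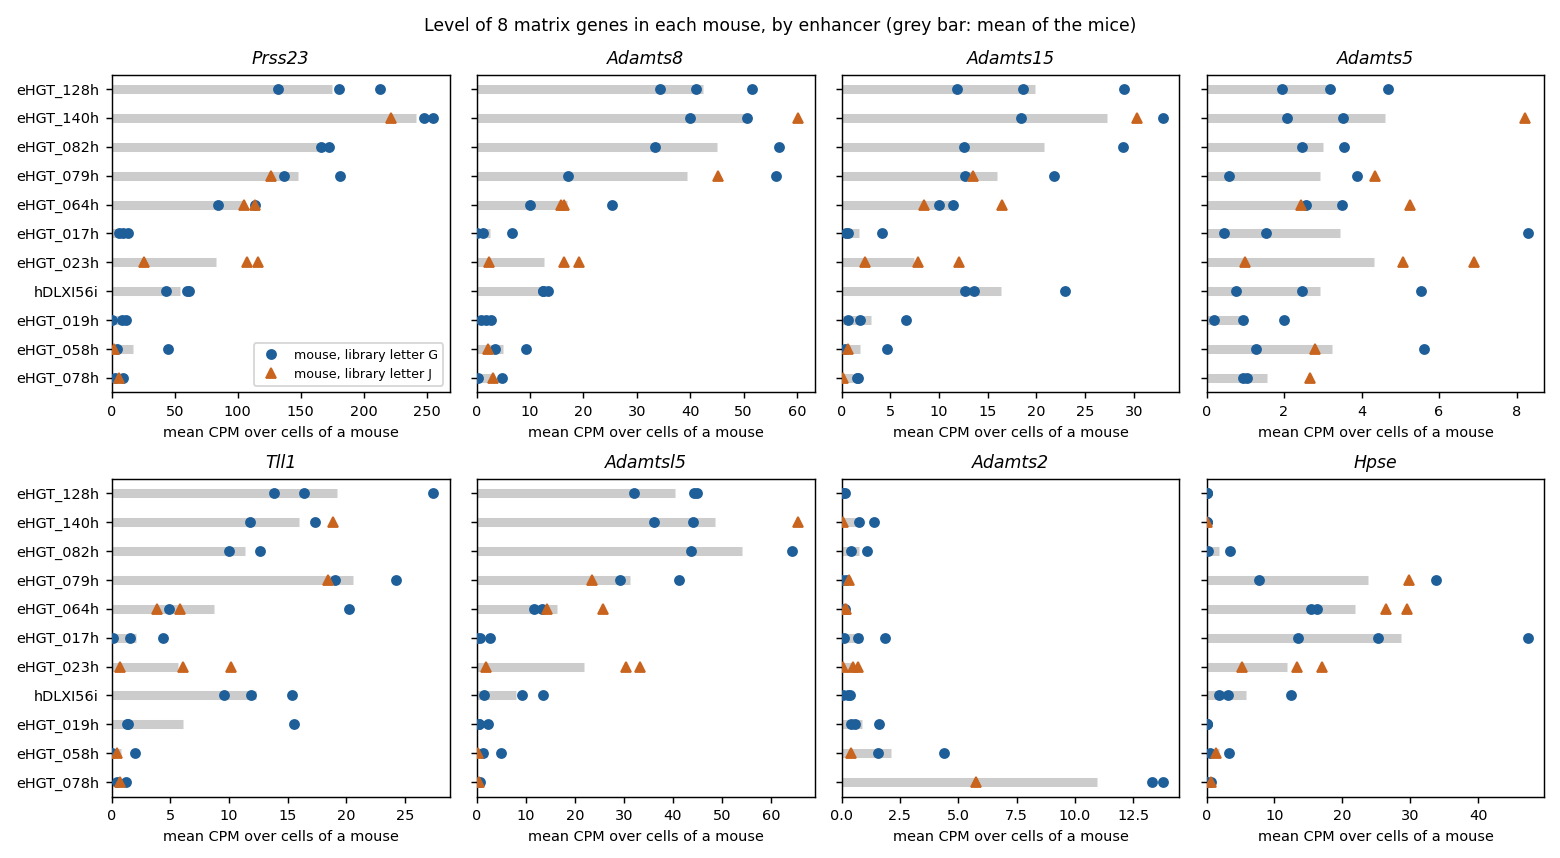
Each symbol is the mean CPM of 1 gene over the sorted cells of 1 mouse, by enhancer, and the grey bar is the mean of the mice. A blue circle marks a library name with G after the shared SM-, and an orange triangle marks one with J. Prss23 is highest in eHGT_140h and Adamts2 in eHGT_078h, while Adamts5 overlaps across all 11 enhancers.

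Prss23 was at 247.4, 255.3 and 221.2 CPM in the mice of eHGT_140h, at 180.4, 131.98 and 212.5 CPM in eHGT_128h, at 165.8 and 172.1 CPM in eHGT_082h and at 181.3, 136.4 and 126.1 CPM in eHGT_079h. The eHGT_064h mice followed at 84.5, 113.6, 113.4 and 104.96 CPM and those of hDLXI56i at 60.9, 59.5 and 42.7 CPM. In the remaining enhancers the highest mouse was at 115.9 CPM in eHGT_023h, 44.8 CPM in eHGT_058h, 13.2 CPM in eHGT_017h and 11.3 CPM in eHGT_019h, and in eHGT_078h at 8.98 CPM. Only eHGT_140h stood clear of every other enhancer. In eHGT_058h the mouse at 44.8 CPM was the 1 with at least 5 Pvalb cells, and its other 2 mice were at 4.36 and 1.67 CPM. In eHGT_023h, likewise, the mouse at 25.7 CPM was the 1 without 5 Pvalb cells, beside 115.9 and 107.1 CPM. Prss23 was called higher for eHGT_140h and eHGT_128h, where 1.44% and 0.961% of all genes were, and lower for eHGT_017h, eHGT_019h, eHGT_058h and eHGT_078h, where 1.41%, 3.83%, 3.15% and 5.36% were.

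Adamts8 was at 50.7, 39.9 and 60.3 CPM in eHGT_140h, 34.3, 41.2 and 51.6 CPM in eHGT_128h, 33.4 and 56.7 CPM in eHGT_082h and 56, 17.2 and 45.2 CPM in eHGT_079h, and was called higher in these 4 (for eHGT_082h and eHGT_079h, 0.930% and 0.433% of all genes were called higher). The eHGT_082h call was lost under 4 of 10 other settings, the library letter in the fit among them, and without 19 of the 33 mice in turn. The eHGT_079h call was lost under 5 of 10, letter G mice alone among them, and without 3 mice in turn. These 4 overlapped with each other and, through the eHGT_079h mouse at 17.2 CPM, with eHGT_064h and eHGT_023h. Adamtsl5 was called higher in the same 4, with its highest mice at 65.6 CPM in eHGT_140h and 64.4 CPM in eHGT_082h. Its eHGT_079h call was lost under 4 of 10 settings and without any 1 of the 3 mice of that enhancer, and its eHGT_082h call without either of the 2. Adamts15 was called higher in eHGT_140h (18.4, 33 and 30.3 CPM) and eHGT_128h (11.8, 18.7 and 29 CPM), which overlapped with hDLXI56i (23, 12.6 and 13.6 CPM). Its eHGT_128h call was lost under 3 of 10 settings and without 2 of the 3 mice of that enhancer. Tll1 was called higher in eHGT_128h (27.4, 13.9 and 16.4 CPM) and eHGT_079h (24.2, 19 and 18.4 CPM). Each of these Tll1 calls was lost without any 1 of the 3 mice of its own enhancer, and under 3 and 4 of 10 other settings. The eHGT_128h call of Prss23 was likewise lost without any 1 of its 3 mice. Adamts8, Adamts15 and Adamtsl5 were called lower, with Prss23, in the 4 enhancers eHGT_017h, eHGT_019h, eHGT_058h and eHGT_078h, and Tll1 in 3 of these without eHGT_019h, of which 1 mouse, the one with the Vip unit above, was at 15.5 CPM. Of these lower calls, Adamts8 in eHGT_058h and Tll1 in eHGT_017h were each lost under 5 of 10 settings and without 2 mice in turn. In the other directions and enhancers the background was 5.78% higher for eHGT_019h, 9.36% higher for eHGT_058h, 2.34% higher and 0.766% lower for hDLXI56i, and 0.0634%, 1.84%, 1.43% and 0.745% lower for eHGT_023h, eHGT_064h, eHGT_079h and eHGT_082h. None of the 8 genes was called for hDLXI56i.

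Hpse had its highest means in eHGT_017h (25.3, 47.4 and 13.4 CPM), eHGT_079h (7.73, 33.8 and 29.8 CPM) and eHGT_064h (16.2, 15.5, 26.4 and 29.5 CPM). These 3 overlapped and were called higher, as was eHGT_023h (5.21, 13.3 and 17.1 CPM), whose call is lost with the library letter in the fit (1.30, from 1.64) and without 12 of the 33 mice in turn. The shares of all genes called higher were 3.78% for eHGT_017h, 0.676% for eHGT_064h and 0.586% for eHGT_023h. Hpse was at 0 in all 3 mice of eHGT_140h and of eHGT_019h and at most 0.0465 CPM in those of eHGT_128h. These 3 enhancers and eHGT_078h were called lower. In eHGT_140h and eHGT_128h 3.97% and 3.78% of all genes were called lower.

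Adamts2 was at 13.3, 13.8 and 5.77 CPM in the 3 mice of eHGT_078h. The next highest mouse of any enhancer was at 4.41 CPM, in eHGT_058h, so eHGT_078h stood clear of the rest. The 2 mice of letter G were the higher 2 and the mouse of letter J the lowest. It was the 1 enhancer called for Adamts2, by 2.91 on the log2 scale, where 8.99% of all genes were called higher. Of the 66 cells with Adamts2, 44 came from the 140 cells of this enhancer and 7 from the 120 cells of eHGT_058h. Adamts5 was called for none of the 11 enhancers, and its mice ran from 0.182 to 8.30 CPM with every enhancer overlapping others.

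Levels within 1 class were compared between enhancers. The same cells entered the mouse means above, and Adamts2 was chosen with its eHGT_078h level known, so no p is given for it. The other members were selected on these cells too. Their adjusted p values below are part of the description and do not show equal levels. An omnibus limma test over enhancers was run in the 4 classes with enough mice. It called 1 of the 8 genes in 1 class.

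The gene called was Adamts2 among Fezf2 cells (8 mice, 3 enhancers), given as a description only. The Fezf2 cells of eHGT_078h were at 18.5, 11.8 and 9.57 CPM, those of eHGT_023h at 0 and 2.91 CPM, and those of eHGT_058h at 0, 0 and 0.108 CPM. The 3 mice of eHGT_078h thus lay above the other 5. As cells, 25 of 62 Fezf2 cells of eHGT_078h had Adamts2, against 0 of 39 in eHGT_058h and 1 of 16 in eHGT_023h. In that class 2.91% of all genes were called. Leaving out the eHGT_058h mouse at 0.108 CPM, 1 of its 2 mice at 0 or any of the 3 eHGT_078h mice ended the call, and without either eHGT_023h mouse the class could not be fitted. Among the other excitatory cells, which had too few mice for the test, the values of the same 2 enhancers overlapped: 7.35, 16.5 and 4.44 CPM in eHGT_078h and 5.07, 21.8 and 1.64 CPM in eHGT_058h. There 19 of 66 cells of eHGT_078h and 6 of 26 cells of eHGT_058h had Adamts2.

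**Figure D4:**
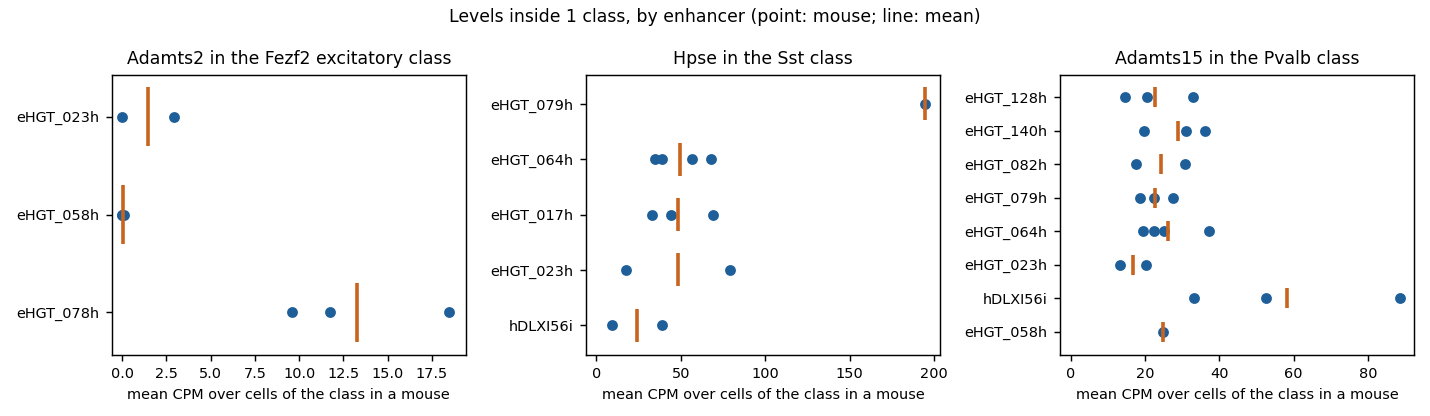
Each point is the mean CPM over the cells of 1 class in 1 mouse, by enhancer, and the line is the mean of the mice, for Adamts2 in Fezf2 cells, Hpse in Sst cells and Adamts15 in Pvalb cells. Adamts2 is at 9.57 CPM or more in the mice of eHGT_078h and at 2.91 CPM or less in the others.

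In Pvalb cells, over 20 mice and 7 enhancers, none of the 6 genes tested passed, while 1.29% of all genes did (limma). With the mean over cells of log2(CPM + 1), Adamtsl5 and Prss23 passed. Prss23 was at 225.03 to 279.5 CPM in eHGT_140h, 147.7 to 246.1 CPM in eHGT_128h and 157.9 to 217.5 CPM in hDLXI56i (adjusted p = 0.519 by limma). Adamts15 was at 52.6, 33.2 and 88.7 CPM in the Pvalb cells of hDLXI56i and at most 37.1 CPM in those of every other enhancer. These ranges overlapped, and Adamts15 was not called (adjusted p = 0.213 by limma), which does not show equal levels. Tll1 was also high in hDLXI56i, at 38.2, 28.2 and 71.5 CPM, with 1 eHGT_064h mouse at 42 CPM (adjusted p = 0.312 by limma). When that eHGT_064h mouse was left out, Tll1 passed. Adamtsl5 had its lowest Pvalb unit, at 8.38 CPM, in hDLXI56i (adjusted p = 0.194 by limma). Adamts8 and Adamts5 had adjusted p values of 0.923 and 0.999 by limma.

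In Sst cells, where 0.191% of all genes were called, Hpse did not pass (adjusted p = 0.583 by limma, 11 mice, 4 enhancers). Its Sst units were at 44.1, 68.9 and 32.8 CPM in eHGT_017h, 34.7, 38.7, 67.8 and 56.8 CPM in eHGT_064h, 17.5 and 78.8 CPM in eHGT_023h and 9.52 and 38.8 CPM in hDLXI56i. The highest unit, 194.3 CPM from 8 Sst cells, was the 1 of eHGT_079h and could not enter the test. In the 3 mice of that enhancer, 2 of 2, 6 of 8 and 3 of 4 Sst cells had Hpse, against 27.3% to 42.9% in the 4 mice of eHGT_064h. Among Sst and Pvalb cells Adamtsl5 was at 0 in the 3 units of eHGT_064h and between 8.50 and 46 CPM in the 9 units of the other enhancers. It did not pass (adjusted p = 0.0744 by limma, 11 mice, 4 enhancers), in a class where 0.00636% of all genes were called. Adamtsl5 passed when either of the 2 eHGT_023h mice with such a unit was left out.

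Single Pvalb cells usually held several of the 5 genes that had their highest class mean in Pvalb cells. These genes were picked on that ground, so their lower counts in the other classes follow from the choice. Whether they occur together more often than their single shares give was not tested. Of Prss23, Adamts8, Adamtsl5, Adamts15 and Tll1, 11.8% of Pvalb cells had all 5 present, 33% had 4, 31.6% had 3, 16.1% had 2, 5.90% had 1 and 1.56% had none. Of the Sst cells 84.3% had none, and of the Sst and Pvalb cells 47.2% had none, 32.4% had 1, 17.6% had 2, 1.85% had 3 and 0.926% had 4. Within Pvalb cells the levels of the 5 showed no more than weak relations: Spearman's rho over the 10 pairs ran from -0.15 (Adamtsl5 with Tll1) to 0.16 (the neighbours Adamts8 and Adamts15), with a median of 0.07, over 576 cells that share libraries and mice. At this sparsity such values are no finding.

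**Figure D5:**
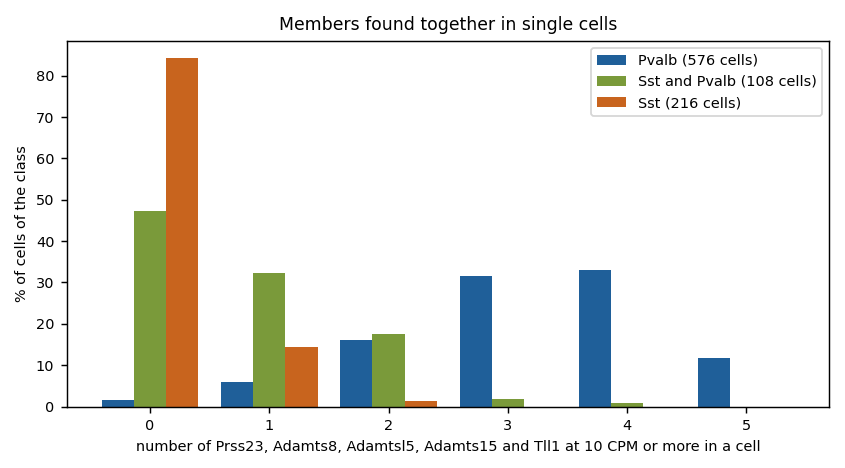
Bars give the percent of cells of 3 classes by how many of Prss23, Adamts8, Adamtsl5, Adamts15 and Tll1 are at 10 CPM or more in the cell. Pvalb cells peak at 4 genes (33.0%), Sst cells and Sst and Pvalb cells at none (84.3% and 47.2%). The genes counted are those picked for their highest class mean in Pvalb cells.

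Over all 1483 cells, the genes whose log2(CPM + 1) was most like that of each member were found among 12894 genes by Pearson's r, as a description. For Prss23 they were Pvalb (0.77), Lpl (0.75) and Tmem132c (0.71), for Adamtsl5 Syt2 (0.73), Pvalb (0.71) and Lrrc38 (0.69), and for Adamts8 Prss23 (0.66), Pvalb (0.64) and Mybpc1 (0.63). Adamts15 was most like Prss23 (0.58), Pvalb (0.56) and Cemip (0.54), and Tll1 like Inpp4b (0.48), Prss23 (0.46) and Lpl (0.46). Hpse went with Pdyn (0.64), Unc13c (0.53) and Prdm1 (0.53), and Adamts2 with Kcng1 (0.54), Pdlim1 (0.52) and Myh7 (0.50). No gene reached 0.3 with Adamts5. These cells share mice and libraries.

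The other genes of the same matrix systems are a list of 91. The list was chosen with earlier results of these data known, and the genes given with a p were picked by size among those called. Their p values, here and below, are therefore part of the description. The 84 tested were called in 28.6% of the 672 pairs of gene and class, 99 higher and 93 lower, beside 10.4% over all genes. In the Pvalb class 10 were called higher and 20 lower, beside 4.43% and 5.45% of all genes. Its median log2 difference was -0.15, beside -0.03 over all genes. Among the lecticans, the proteins that Adamts5, Adamts8 and Adamts15 can cut, Acan (aggrecan) and Bcan (brevican) were called higher in Pvalb cells and Ncan (neurocan) lower. Bcan was at 68.7 ± 18.1 CPM in Pvalb units (SD, n = 21) against 10.5 CPM in the other classes, a log2 difference of 3.66 (SE 0.23, adjusted p = 2.31e-24 by limma). Of 14 other ADAMTS proteases, Adamts1 and Adamts6 were called higher in the Pvalb class and Adamts13 and Adamts18 lower. Serpine2, an inhibitor of serine proteases, was at 1.06 ± 1.77 CPM in Pvalb units (SD, n = 21) against 142.1 CPM elsewhere (log2 difference -4.00, SE 0.39, adjusted p = 1.40e-14 by limma). It was also low in Sst and Pvalb units, at 1.30 ± 1.97 CPM (SD, n = 12), while Vip units averaged 488.1 CPM and Fezf2 units 387.2 CPM. Mmp17, a membrane-bound metalloprotease, was lower in the Pvalb class, with a log2 difference of -3.14 (SE 0.19, adjusted p = 4.13e-25 by limma).

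The enzymes that build and edit heparan sulfate, which Hpse cuts, were split. In the Sst class 2 of 19 were called higher (Glce, Ndst4) and 4 lower (Ext1, Hs3st2, Hs3st4, Hs6st3), beside 3.25% and 3.40% of all genes. In the Fezf2 class 6 were called higher and none lower, beside 6.23% and 3.0% of all genes, where the list's median log2 difference was 0.52 beside 0.02 over all genes. In the Rorb class 7 were called higher and 1 lower (9.14% of all genes called higher there and 5.72% lower), and in the other excitatory class 3 in each direction (6.89% and 4.31% of all genes). Ext1, a polymerase of the chain, was at 18.2 ± 4.88 CPM in Sst units (SD, n = 12) against 88.05 CPM elsewhere (log2 difference -1.69, SE 0.16, adjusted p = 6.99e-15 by limma). Hs3st2, a sulfotransferase, was at 75.98 ± 32.98 CPM in Fezf2 units (SD, n = 8) against 19.2 CPM (log2 difference 3.97, SE 0.39, adjusted p = 6.70e-14 by limma), and ran from 34.4 to 191.8 CPM in the 7 other excitatory units, against a mean of 14.6 CPM elsewhere (log2 difference 4.52, SE 0.41, adjusted p = 2.24e-15 by limma). Timp3, a metalloprotease inhibitor bound to the matrix, was at 58.4 ± 34.4 CPM in Sst units (SD, n = 12) against 8.42 CPM (log2 difference 3.91, SE 0.36, adjusted p = 6.03e-15 by limma).

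Among the Lamp5 cells, where Prss23 and Adamtsl5 were called lower, 16 of the 84 other matrix genes were called higher and 10 lower, beside 5.76% and 4.59% of all genes. Vcan (versican) was at 27.2 ± 18.3 CPM there (SD, n = 7) against 1.18 CPM (log2 difference 4.10, SE 0.32, adjusted p = 1.28e-18 by limma). Adamtsl1, which like Adamtsl5 lacks a protease domain, was at 33.3 ± 21.3 CPM (SD, n = 7) against 3.33 CPM (log2 difference 3.55, SE 0.35, adjusted p = 7.22e-14 by limma). So the 2 ADAMTS-like genes led in different classes.

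Markers of other cell types were low in the sorted cells, except in a few. The summed level of 5 oligodendrocyte markers per mouse had a median of 5.99 CPM and a range of 0.0977 to 337.6 CPM, and that of 5 astrocyte markers a median of 5.77 and a range of 0.794 to 67.2 CPM. The medians for oligodendrocyte precursor (4), microglia (5), endothelial (4) and mural and meningeal (5) markers were 0.458, 0.665, 0.706 and 1.07 CPM, and no marker of these lists was at 0 in all cells. In 14 cells at least 3 markers of 1 list were present. Without these 14 cells 42 pairs of gene and enhancer and 28 of gene and class were called. After a shared SM-, library names went on with G for 24 mice and with J for 9, called the library letter here. With enhancer in the model none of the 8 genes was called between the letters (limma, smallest adjusted p = 0.333, log2 differences -0.57 to 0.62). Of all genes 0.106% were called. Adamts2 had the smallest adjusted p and was the 1 gene with an unadjusted p under 0.05 by limma. Its log2 difference, J minus G, was -0.57, and its letter J mice were also the lower ones in the other excitatory class. All mice of eHGT_023h had letter J, and all mice of eHGT_017h, eHGT_019h, eHGT_082h, eHGT_128h and hDLXI56i had letter G. The letters were thus compared only within the remaining enhancers, and letter and enhancer cannot be told apart in these. In Pvalb cells Prss23 averaged 217.5 ± 37.6 CPM in 15 mice of letter G (SD) and 223.8 ± 24.6 CPM in 6 mice of letter J (SD), and Hpse in Sst cells 57.7 ± 57.5 CPM in 8 and 55.2 ± 26.7 CPM in 4 (SD).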

How the data were processed

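The deposited table holds CPM that the authors computed per cell, each cell summing to 1000000. STAR and mm10 appear in the submitters' processing notes, with no role stated. How reads were counted, with which annotation, and how cells were filtered is not given in the sources used here. Dividing each cell's values by what 1 read is worth gave whole numbers, within 0.01 read, for 100% of the values above 0, and so the reads per cell. Depth per cell ran from 833 to 1018507 reads. Reads carry no molecular identifiers, so the limits that a count of 0 allows (3 counts) cover counting error only. All cells were used, and no doublet caller was run.

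CPM were averaged over the cells of a mouse, or of a class in a mouse (at least 5 cells), with the mouse as the replicate. limma 3.58.1 (trend, robust) was fitted to log2(mean CPM + 1) of every gene that reached 1 CPM in 2 or more units (18932 for enhancers, 22440 for classes), with Benjamini-Hochberg adjustment over all of them. A gene was called when its adjusted p was below 0.05 and its log2 difference was 1 or more in size. In the class fit the mouse was a random block (correlation 0.0697). Within a class an omnibus test without the fold limit used enhancers with at least 2 mice, in classes with at least 3 such enhancers. The fits were tested on simulated data. There the omnibus test within Pvalb cells recovered 46 of 100 genes changed by 1.5 on the log2 scale. It recovered 92 of 100 changed by 3.0, so it can miss differences of the smaller size. The library letter entered an additive model with enhancer. The labels do not say that the mice differ in litter or day, and p-values measure the spread between them.

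The members, gene lists, thresholds and tests were chosen with earlier results of these data known. All 8 members are named. Other matrix genes were named from those called whose higher side reached 20 CPM and whose every unit lay beyond the median of the others, at most 3 per contrast by size; genes of a list are named where the list is described. Genes most like a member were the 3 of highest r of at least 0.3 among genes at 10 CPM in at least 20 cells. A count model on the recovered reads was planned and not run. Python 3.11.15, numpy 2.4.6, pandas 2.3.3, scipy 1.17.1 and matplotlib 3.10.9 were used.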

Additional observations from a re-analysis of the deposited data

Results flagged for a closer look

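Among 37 sets of 4 to 10 mice, 13 held a highest mouse far from the others by Dixon's criterion at the 95% level, which chance alone meets in about 1 of 20 sets of normally distributed values. That rate does not hold for the sets here in which most mice were at or near 0. In Vip cells these were, all in the same eHGT_019h unit, Tll1 at 61.8 CPM (the others at most 5.13), Adamts15 at 16 CPM (the others at 0) and Adamtsl5 at 7.24 CPM (the others at most 0.214). In Rorb cells they were Adamts5 at 10.5 CPM, Adamts8 at 13.3 CPM and Prss23 at 10.05 CPM, in Fezf2 cells Adamts5 at 10.5 CPM and Prss23 at 16.5 CPM, and in Lamp5 cells Tll1 at 6.83 CPM and Prss23 at 11.2 CPM. In Sst cells of eHGT_064h Adamts15 stood at 3.81 CPM and Prss23 at 16.4 CPM, and over all cells of eHGT_064h Tll1 at 20.3 CPM in 1 mouse (the others at most 5.86).

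Cells that entered no class comparison also held the genes. The 80 cells without a class averaged 63.6 CPM of Prss23, 13.9 CPM of Adamts8, 11.6 CPM of Adamtsl5, 10.3 CPM of Tll1, 9.13 CPM of Adamts15, 4.56 CPM of Hpse, 1.85 CPM of Adamts5 and 1.28 CPM of Adamts2. The 21 other inhibitory cells averaged 51.7 CPM of Prss23, 6.72 CPM of Tll1, 5.49 CPM of Adamts15, 4.55 CPM of Adamts8, 1.63 CPM of Adamtsl5 and 1.09 CPM of Adamts5. All are above the level that 3 reads give (0.0635 and 0.242 CPM), and both sets mix cells of several enhancers.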

How the results depend on the processing

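With a pseudocount of 10, 25 pairs of gene and enhancer (42 with 1) and 7 of gene and class (27) were called for the 8 genes, and the other matrix genes had a mean of 5.55 calls per enhancer (12.3) and 10.8 per class (24). With the mean over cells of log2(CPM + 1), 14 pairs of gene and class were called. Within classes, 2 results passed with a pseudocount of 0.1 (Adamtsl5 in Sst and Pvalb cells joined Adamts2), 3 with the mean over cells of log2 values (Adamtsl5 and Prss23 in Pvalb cells joined it), and 0 when units needed 10 cells, where only the Pvalb class could be fitted. No difference of the 8 genes that was called changed sign under the alternatives run. Of such values 18.1% no longer passed the call rule. Leaving out 1 mouse at a time gave 36 to 47 calls of the 8 genes for enhancers and 24 to 28 for classes, a mean of 11.3 to 13.1 calls of the other matrix genes per enhancer and 23.2 to 25.1 per class, 0 to 2 within classes and 0 to 0 between library letters. Between enhancers no paired analysis was possible because they share no mouse. Of the 32 library names 9 held cells of 2 or more enhancers. With the name that most cells of a mouse carry as a random block (correlation 0.145), 38 pairs of gene and enhancer were called for the 8 genes, without Adamts8 in eHGT_079h and eHGT_082h, Adamtsl5 in eHGT_079h and Hpse in eHGT_023h. Classes were compared with the mouse as a block, and 27 pairs were called without it. edgeR on the recovered reads was not run. The library block, limma voom on the recovered reads, and leaving out 14 cells with markers of other types, were chosen after seeing the data. Over all genes voom called more than 1.5 times as many as limma in 3 of 11 enhancer and 4 of 8 class comparisons, as percent of genes 2.29 against 0.650 for eHGT_023h, 2.75 against 1.67 for eHGT_082h, 5.54 against 3.11 for hDLXI56i, 30.7 against 9.88 for Pvalb, 13.97 against 6.65 for Sst, 20.1 against 10.3 for Lamp5 and 14.4 against 9.23 for Fezf2; the cause was not tested. Shares of cells followed the threshold: at 50 CPM, Adamts8 was in 33.9% of Pvalb cells, not 66.3%. Thinned to 100000 reads per cell, the 16 shallower cells left out, they were 91.1% for Prss23 and 44.2% for Tll1 in Pvalb cells. A gene near 1 read in 1 cell, at about 1.71 CPM, is at the limit of depth.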

Other observations

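The other matrix genes also differed between enhancers, in 15.5% of the 869 pairs of gene and enhancer (beside 5.60% over all genes), 76 higher and 59 lower. In eHGT_078h, where Adamts2 was high, 22 of 79 were called higher and 10 lower, beside 8.99% and 5.36% of all genes. Serpine2 was at 336.3 ± 17.6 CPM there (SD, n = 3) against 43.3 CPM in the other enhancers (log2 difference 4.17, SE 0.87, adjusted p = 0.000562 by limma), and Htra1, a secreted serine protease, at 2.92 ± 0.958 CPM (SD, n = 3) against 66.7 CPM (log2 difference -3.99, SE 0.25, adjusted p = 2.78e-13 by limma). In eHGT_058h, 18 were called higher and 6 lower, beside 9.36% and 3.15% of all genes. The heparan sulfate sulfotransferase Hs6st3 was at 474.2 ± 204.4 CPM there (SD, n = 3) against 71.5 CPM (log2 difference 3.31, SE 0.50, adjusted p = 1.65e-05 by limma).

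In eHGT_017h, the enhancer with the highest Hpse mean, 3 of 11 heparan sulfate proteoglycans were called higher (Gpc3, Sdc1, Sdc2) and none lower. Of all genes 3.78% were called higher and 1.41% lower there. Timp3 was at 66.3 ± 38.7 CPM in this enhancer (SD, n = 3) against 10.4 CPM (log2 difference 3.01, SE 0.64, adjusted p = 0.00222 by limma). In eHGT_128h 2 of 4 lecticans were called higher (Acan, Bcan) and Vcan lower, beside 0.961% and 3.78% of all genes. In eHGT_019h Vcan was at 20.7 ± 14.97 CPM (SD, n = 3) against 2.52 CPM (log2 difference 3.05, SE 0.43, adjusted p = 3.35e-06 by limma). Mmp17 was lower in eHGT_128h, eHGT_140h, eHGT_079h and eHGT_064h and higher in hDLXI56i, at 84.4 ± 9.78 CPM (SD, n = 3) against 55.99 CPM (log2 difference 1.33, SE 0.28, adjusted p = 0.00275 by limma). The enhancers sorted different classes, and the mix of classes and the level within a class cannot be told apart in these values.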
